A study of Mus musculus with 8 samples.

Results

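Acute phase proteins are plasma proteins whose synthesis in the liver rises in inflammation, and 10 genes grouped under this name were examined here in mouse hepatitis. They are the serum amyloid A genes Saa1, Saa2, Saa3 and Saa4, the orosomucoid genes Orm1, Orm2 and Orm3, and Lcn2, Hp and Crp. They were taken by symbol from the deposited table, where 10 of 10 were found among 21899 genes, and all 10 passed the filter on low counts. The liver samples gave 4 libraries of wild-type mice (WT) and 4 whose genotype is labelled P2X4R knockdown, called deficient below, which the series design writes as P2X4R-/-. P2X4R, encoded by P2rx4, is an ion channel opened by extracellular ATP. All 8 received ConA (concanavalin A), a lectin from jack beans used to provoke T cell-driven liver injury, and all are marked 8 h. The labels give no strain, sex, age, batch or method of depletion, do not say which part of P2rx4 was altered, and do not say that libraries came from separate animals, so the spread behind each p-value is that between libraries and may be technical. How far ConA itself induced the genes is not shown, since untreated livers were not analysed here.

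In the acute phase response, macrophages and other cells release IL-6, IL-1 and TNF. In hepatocytes IL-6 acts through the kinase JAK and the transcription factor STAT3, and IL-1 and TNF act through NF-kB, with the C/EBP factors binding at many of the same promoters. Saa1 and Saa2 encode apolipoproteins of acute phase high-density lipoprotein, Saa3 is also made by macrophages and fat cells, and Saa4 is known as the constitutive member. Orosomucoids are lipid- and drug-binding plasma glycoproteins, lipocalin 2 (Lcn2) binds bacterial siderophores, haptoglobin (Hp) captures free haemoglobin, and C-reactive protein (Crp) is a pentraxin that binds phosphocholine and is a weaker reactant in mice than in humans.

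The 4 serum amyloid genes lie together on chromosome 7 and the 3 orosomucoid genes on chromosome 4, at the coordinates listed in the table (build not given in the sources used here). Saa3 (ENSMUSG00000040026; 46361422 to 46365124, minus strand), Saa4 (ENSMUSG00000040017; 46377422 to 46382027, minus strand) and Saa1 (ENSMUSG00000074115; 46389921 to 46392404, minus strand) are followed by Saa2 (ENSMUSG00000057465; 46401214 to 46403737, plus strand), so Saa1 and Saa2 stand head to head. Orm1 (ENSMUSG00000039196; 63262797 to 63266400), Orm3 (ENSMUSG00000028359; 63274399 to 63277748) and Orm2 (ENSMUSG00000061540; 63280686 to 63284115) follow each other on the plus strand. Lcn2 (ENSMUSG00000026822) is on chromosome 2 from 32274645 to 32278264 and Hp (ENSMUSG00000031722) on chromosome 8 from 110301760 to 110305804, both on the minus strand. Crp (ENSMUSG00000037942) is on the plus strand of chromosome 1, and its listed span from 172525622 to 172660598 covers 134977 bases. No other gene of the table overlapped a listed span.

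The paralogs are close enough in sequence that reads could be shared between them. Saa1 and Saa2 differed at 18 of 366 aligned coding bases (95.1% identity) in the GENCODE M21 transcripts with the lowest number of each gene, and 13.2% of the 50-base windows of the Saa1 transcript occurred unchanged in Saa2, but 0% of the 100-base windows. Orm1 and Orm2 differed at 63 of 621 (89.9%), with 20.4% of 50-base and 6.95% of 100-base windows shared. Orm3 was 86.4% identical to Orm1 and 88.35% to Orm2, and Saa3 79.3% and Saa4 69.6% identical to Saa1. No source used here gives the read length or the treatment of reads with several matches, so counts of Saa1 and Saa2, and of the orosomucoid genes, are uncertain to that extent. The stretches of 90 coding bases in which each pair differed most are shown, coding bases 61 to 150 for the serum amyloid pair (11 differences) and 139 to 228 for the orosomucoid pair (20 differences), with the differing bases in capitals.
Saa1: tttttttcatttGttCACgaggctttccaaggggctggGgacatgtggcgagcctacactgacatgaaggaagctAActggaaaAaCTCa
Saa2: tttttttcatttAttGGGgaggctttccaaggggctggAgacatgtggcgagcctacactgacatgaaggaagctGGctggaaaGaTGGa
Orm1: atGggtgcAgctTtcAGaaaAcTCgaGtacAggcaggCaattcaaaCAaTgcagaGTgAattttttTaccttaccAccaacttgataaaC
Orm2: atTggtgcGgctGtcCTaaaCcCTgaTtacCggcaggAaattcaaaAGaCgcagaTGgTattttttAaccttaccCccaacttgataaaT

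Promoter sequences from RefSeq on GRCm38.p6 were found for 8 of the 10 genes, not for Orm1 and Hp. Their positions do not adjoin the gene spans listed above, which are thus not on this build, so the coordinates cannot be compared directly. In the 250 bases before the start, Saa1 and Saa2 were 95.6% identical, with 11 differences among the aligned bases. These are shown because both genes had the largest read counts after Hp and were high in the same libraries, Saa1 at chr7:46742981-46743230 (minus strand) and Saa2 at chr7:46751583-46751832 (plus strand), with the match to a C/EBP motif in capitals.
Saa1: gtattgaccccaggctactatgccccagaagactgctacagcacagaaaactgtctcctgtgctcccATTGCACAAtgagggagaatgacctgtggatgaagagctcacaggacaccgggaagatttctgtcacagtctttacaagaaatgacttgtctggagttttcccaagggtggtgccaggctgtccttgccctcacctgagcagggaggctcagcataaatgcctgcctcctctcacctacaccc
Saa2: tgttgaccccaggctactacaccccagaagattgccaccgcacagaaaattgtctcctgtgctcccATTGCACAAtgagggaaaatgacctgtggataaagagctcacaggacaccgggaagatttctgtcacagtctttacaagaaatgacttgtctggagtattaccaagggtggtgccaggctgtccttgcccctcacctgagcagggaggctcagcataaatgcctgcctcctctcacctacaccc

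The motif in capitals was TTNNGCAAT on the opposite strand, at -183 to -175 from the start of Saa1 and at -184 to -176 from that of Saa2, and it was found in 1.93% of 32851 promoters of the same length. None of the 8 promoters held, on either strand, TTCNNNGAA (STAT; 7.02% of all promoters), CTGGGAA (IL-6 response element type 2; 9.1%), GGANTTTCC or GGAAATTCC (kappa B; 1.07% and 0.286%), TGTTTAC (forkhead; 3.17%) or GTTAATNAT (HNF1; 0.737%). These matches describe letters in these windows only. Orm2 and Orm3, neighbours with values in opposite directions below, were 89% identical over 245 aligned bases of promoter. Both are shown with the bases that differ or have no partner in capitals, Orm2 at chr4:63362199-63362448 and Orm3 at chr4:63355908-63356157, both on the plus strand.
Orm2: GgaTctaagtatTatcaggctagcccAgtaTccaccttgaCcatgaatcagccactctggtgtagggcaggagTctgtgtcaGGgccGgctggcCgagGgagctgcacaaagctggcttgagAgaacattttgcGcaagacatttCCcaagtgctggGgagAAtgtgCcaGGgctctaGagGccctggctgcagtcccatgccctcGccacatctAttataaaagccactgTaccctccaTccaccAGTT
Orm3: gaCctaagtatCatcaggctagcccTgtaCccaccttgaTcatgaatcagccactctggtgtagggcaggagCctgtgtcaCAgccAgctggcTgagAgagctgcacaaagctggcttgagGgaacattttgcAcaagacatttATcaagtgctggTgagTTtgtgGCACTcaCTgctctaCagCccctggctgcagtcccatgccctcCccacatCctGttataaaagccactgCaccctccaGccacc

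Library totals ran from 15445285 to 16604190 counted reads. P2rx4, the targeted gene, was at 17.3 to 29.6 CPM in deficient and 43.8 to 62.4 CPM in wild-type libraries, where CPM is the count scaled to a common library size, with TMM factors for composition. The log2 fold change was -1.18 and P2rx4 thus fell (SE 0.19, edgeR adjusted p = 0.00481). For the tissue label, albumin (Alb) was at 55473 to 96659 CPM in every library. Wild type 1 was the lowest of the 4 wild-type libraries for 7 of the 10 genes and the highest for Saa3, Saa4 and Orm3.

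Most of the 10 genes had higher values in deficient livers, while 2 rose by the test and 1 fell. Their reads together made up 4.72% to 6.92% of a deficient library (5.82% ± 0.939, SD, n = 4) and 3.06% to 4.38% of a wild-type library (3.71% ± 0.622, SD, n = 4) by library totals, without overlap. With TMM scaling the groups overlapped, at 4.69% to 6.45% in deficient and 3.06% to 4.78% in wild-type libraries, where wild type 2 lay above deficient 2. In bulk tissue, a change in the number of hepatocytes and a change in RNA per cell cannot be told apart. By edgeR's quasi-likelihood test with Benjamini-Hochberg adjustment over 11380 genes, Orm2 and Lcn2 rose and Crp fell, beside 9.27% of all genes tested called higher and 10.6% called lower. At an unadjusted p under 0.05, 6 were higher and 2 lower, beside 1959 higher and 2047 lower of all 11380 genes tested. The median log2 fold change of the 10 was 0.49, against -0.0015 for all genes tested. Values did not overlap between groups for Orm1, Orm2 and Lcn2, all higher, and for Crp, lower, beside 12.7% and 12.3% of all genes in those directions (24.9% in either).

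The number that rose depended on scaling and on single libraries. It was 7 with scaling by library size alone, 5 with DESeq2 and 6 or 4 with limma on log2(FPKM + 1) or log2(FPKM + 0.1), where FPKM is the count scaled by gene length and library total. It was 1 when deficient 1, 3 or 4 or wild type 3 or 4 was left out, and 4 when deficient 2 was. With DESeq2 or without deficient 4, 2 fell, Orm3 being the added gene. Orm2 rose and Crp fell in all 17 alternatives.

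**Figure D1:**
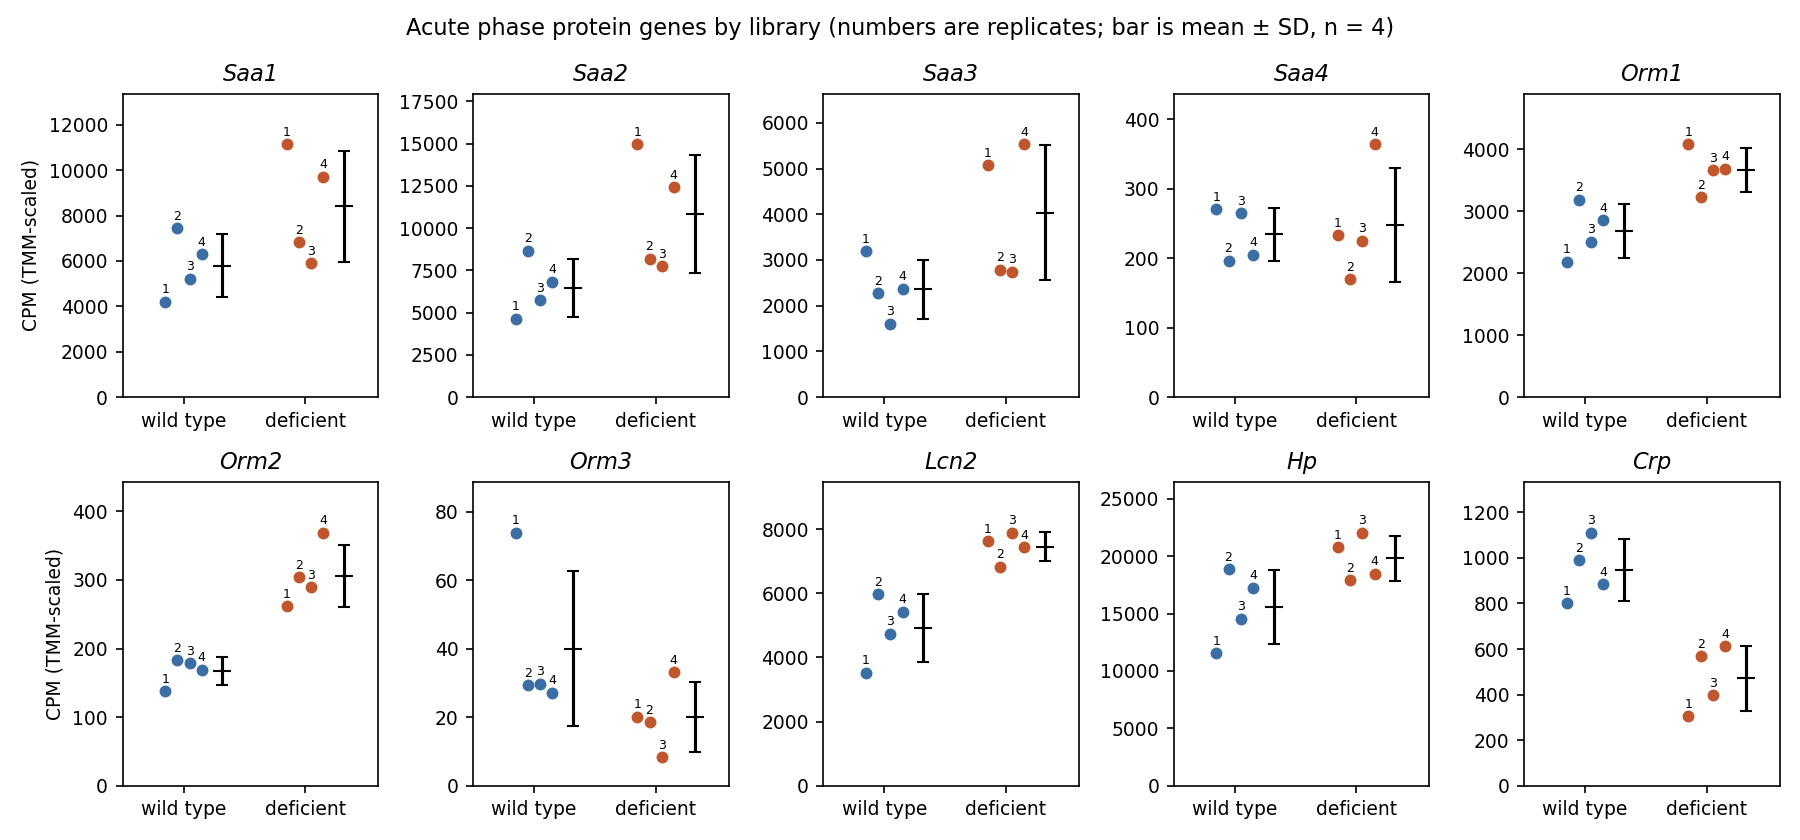
CPM (TMM-scaled, linear axes from 0) of each of the 10 genes in the 4 wild-type (blue) and 4 deficient (orange) libraries, numbered by replicate, with mean ± SD beside each group. Orm1, Orm2 and Lcn2 are higher and Crp lower in every deficient library than in any wild-type library, and wild type 1 is at an end of the wild-type range for each gene.

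**Figure D2:**
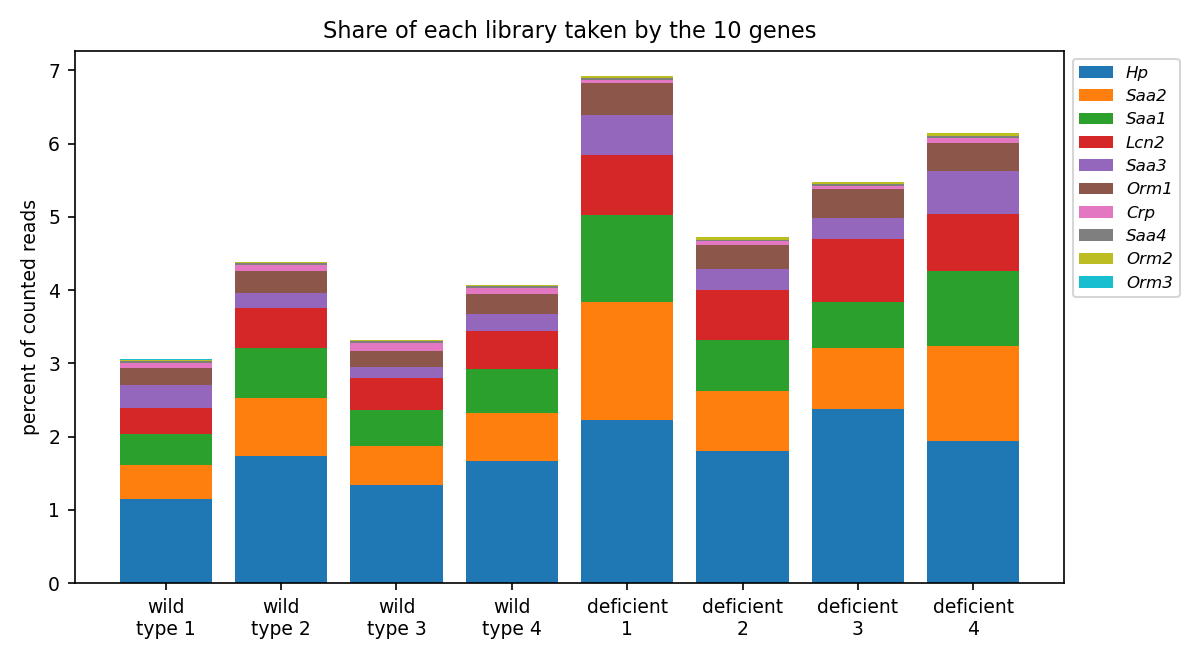
Percent of counted reads (y axis from 0) taken by the 10 genes in each library, stacked by gene. The total by library totals, without TMM scaling, is 3.06% to 4.38% in wild-type and 4.72% to 6.92% in deficient libraries, which overlap once TMM-scaled, with Hp, Saa2 and Saa1 the thickest layers on average.

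Among the serum amyloid genes, the 3 inflammation-induced members had higher means in deficient livers without passing the test, and Saa4 differed little. Saa1 was at 11149, 6840, 5902 and 9714 CPM in deficient libraries 1 to 4 and at 4215, 7440, 5226 and 6288 CPM in wild type 1 to 4. Deficient 1 and 4 were above every wild-type library, and deficient 2 and 3 were within the wild-type range. The log2 fold change was 0.54 (SE 0.24, edgeR adjusted p = 0.126).

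Saa2 was at 14975, 8198, 7737 and 12440 CPM in deficient and at 4645, 8664, 5750 and 6838 CPM in wild-type libraries. Deficient 1 and 4 were again the high ones, and wild type 2 lay above deficient 2 and 3. In FPKM, which carry no TMM factor, the groups did not overlap (3280 to 6381 and 1845 to 3155). Its log2 fold change was 0.74 (SE 0.25, edgeR adjusted p = 0.0556), with an interval for the fold of 1.15 to 2.44 (95%), and it passed in 7 of 17 alternatives, among them DESeq2 (adjusted p = 0.0236) and library size alone (adjusted p = 0.0232).

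Saa3, the member also made outside hepatocytes, was at 5080, 2786, 2745 and 5534 CPM in deficient and at 3187, 2274, 1605 and 2376 CPM in wild-type libraries. The libraries fell into a high pair, deficient 1 and 4, and the rest, with wild type 1 above deficient 2 and 3. The log2 fold change was 0.77 (SE 0.27, edgeR adjusted p = 0.0646), and 0.94 (adjusted p = 0.0419) without wild type 1. It passed in 7 of 17 alternatives.

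Saa4 was at 233, 169, 225 and 364 CPM in deficient and at 270, 196, 265 and 205 CPM in wild-type libraries. Deficient 4 alone was above the wild-type range, and deficient 2 alone below it. The log2 fold change was 0.08 with a 95% interval from -0.41 to 0.58 (SE 0.23, edgeR adjusted p = 0.828), and -0.18 without deficient 4.

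The spread of Saa1, Saa2 and Saa3 among deficient livers was wide. Their SD was 29.1%, 32.1% and 36.6% of the mean there and 23.9%, 26.5% and 27.5% in wild-type livers, where the median of all genes tested was 21.7% and 19.1%. In deficient livers Saa4 (33.3%), Crp (30.6%) and Orm3 (50.7%) also had a wide spread. Orm1 (9.51%), Orm2 (14.9%), Lcn2 (6.04%) and Hp (9.82%) had a smaller one. The 4 serum amyloid genes together took 2.48% ± 0.803 (SD, n = 4) of deficient and 1.41% ± 0.243 (SD, n = 4) of wild-type reads, with ranges of 1.79% to 3.37% and 1.19% to 1.70% by library totals. With TMM scaling the ranges were 1.66% to 3.14% and 1.23% to 1.86% and overlapped.

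The orosomucoid genes gave 3 different patterns. Orm2 was at 261, 304, 290 and 369 CPM in deficient and at 137.5, 183.5, 179 and 169 CPM in wild-type libraries. Every deficient library was above every wild-type library, and the highest wild-type value was well under the lowest deficient one. Orm2 rose, with a log2 fold change of 0.87 (SE 0.17, edgeR adjusted p = 0.00755), a fold of 1.83 with a 95% interval of 1.43 to 2.35.

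Orm1, the most abundant of the family, was at 4082, 3229, 3662 and 3684 CPM in deficient and at 2187, 3184, 2508 and 2853 CPM in wild-type libraries. The groups did not overlap, although deficient 2 and wild type 2 almost met. Its log2 fold change of 0.45 (SE 0.16, edgeR adjusted p = 0.0704) did not pass, and it passed with DESeq2 (0.44, adjusted p = 0.0336) and with library size alone (0.60, adjusted p = 0.0197).

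Orm3, the least abundant of the 10, was at 20.2, 18.5, 8.33 and 33.1 CPM in deficient and at 74.0, 29.3, 29.8 and 27.2 CPM in wild-type libraries. Deficient 4 lay above wild type 2, 3 and 4, so the groups overlapped. The log2 fold change was -0.9998 (SE 0.40, edgeR adjusted p = 0.0968), and -0.54 (adjusted p = 0.29) without wild type 1. Without deficient 4 it was -1.38 (adjusted p = 0.0454).

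Ratios within a library do not depend on the scaling between libraries, and for 2 of the 3 paralog pairs described they did not overlap between the groups. The share of other gene pairs without overlap was not computed, and 24.9% of single genes tested did not overlap in CPM. The ratio of Saa1 to Saa2 FPKM was 0.757, 0.848, 0.775 and 0.793 in deficient and 0.922, 0.873, 0.924 and 0.934 in wild-type libraries, without overlap. The ratio of Orm3 to Orm2 was 0.0775, 0.0610, 0.0288 and 0.0899 in deficient and 0.539, 0.160, 0.167 and 0.161 in wild-type libraries, also without overlap and with wild type 1 far above the others. The ratio of Orm1 to Orm2 was 9.98 to 15.6 in deficient and 14.0 to 17.35 in wild-type libraries, where deficient 1 lay within the wild-type range. These are descriptions with no test, and reads shared between paralogs enter them. The ratios to Orm2 also carry the rise of Orm2 given above.

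**Figure D3:**
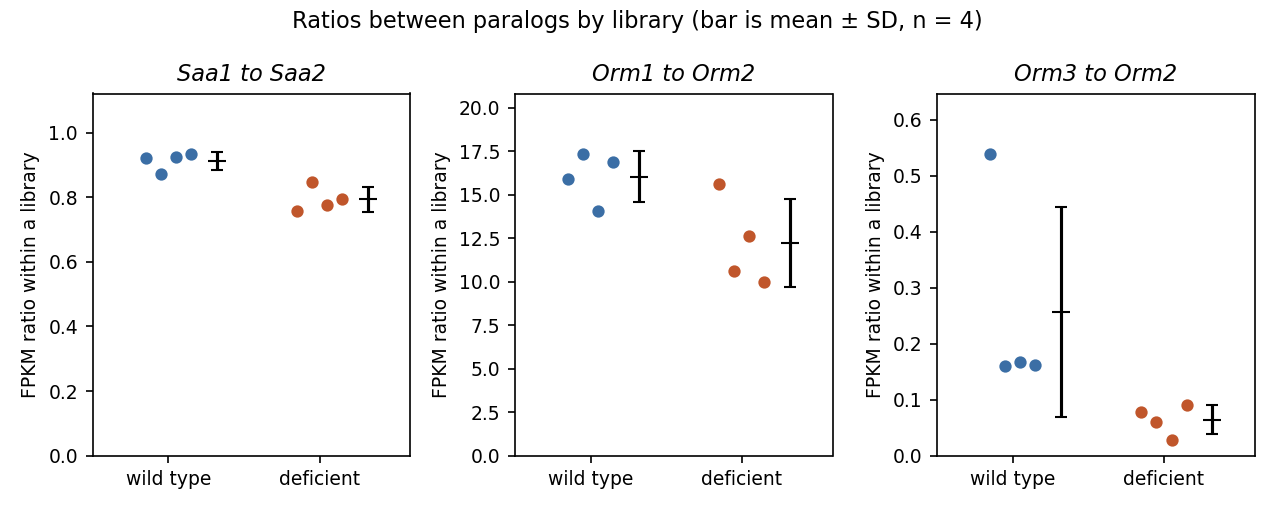
FPKM ratio of 2 paralogs within each library (y axes from 0), wild type in blue and deficient in orange, with mean ± SD of 4. The groups are apart for Saa1 to Saa2 and Orm3 to Orm2 and overlap for Orm1 to Orm2.

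Lcn2, which encodes lipocalin 2, was at 7640, 6840, 7898 and 7451 CPM in deficient and at 3531, 5975, 4746 and 5435 CPM in wild-type libraries. The deficient values were close together, with an SD of 6.04% of the mean against 21.4% in wild type, and all lay above the wild-type range. Lcn2 rose, at a log2 fold change of 0.60 (SE 0.18, edgeR adjusted p = 0.0346). This call was lost on leaving out any of deficient 1, 3 and 4 and wild type 3 and 4 (adjusted p from 0.0519 to 0.0924, with log2 fold changes from 0.57 to 0.66).

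Lcn2 is also a granule protein of neutrophils, so neutrophil markers are given beside it. Of 14 markers 11 were tested, and all 11 had positive log2 fold changes, beside 5679 of all 11380 genes tested. Of these markers 2 rose (Cxcr2 and Mmp8) and 0 fell, beside 9.27% of all genes tested called higher and 10.6% called lower. The sum of all 14 was 108 to 204 CPM in deficient and 32.8 to 112 CPM in wild-type libraries. Wild type 1, the lowest for Lcn2, had the highest neutrophil sum of its group at 112 CPM, close to the 108 to 114 CPM of deficient 1, 2 and 3. The granule and surface markers Elane, Mpo and Ly6g did not pass the filter on low counts. S100a9, an abundant neutrophil alarmin, was at 47.6 to 95.4 CPM in deficient and 13.8 to 54.3 CPM in wild-type libraries (log2 fold change 0.98, SE 0.41, edgeR adjusted p = 0.11), and it passed without wild type 1 (1.38, adjusted p = 0.0376). Its partner S100a8 was at 15.4 to 30.6 and 4.04 to 18.5 CPM. Their part in the Lcn2 result was not tested.

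Hp took the most reads of the 10 genes, at 20762, 17908, 22053 and 18476 CPM in deficient and 11543, 18892, 14548 and 17266 CPM in wild-type libraries. Wild type 2 lay above deficient 2 and 4. The log2 fold change of 0.35 (SE 0.18, edgeR adjusted p = 0.186) did not pass, and it was 0.22 (adjusted p = 0.316) without wild type 1. With library size alone it was 0.50 (adjusted p = 0.0496), and in FPKM the groups did not overlap (11234 to 14780 and 7187 to 10784).

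Crp went the other way. It was at 305, 567, 397 and 613 CPM in deficient and at 800, 991, 1111 and 884 CPM in wild-type libraries. Every deficient library was below every wild-type library, and deficient 1 was the lowest. Crp fell, with a log2 fold change of -1.01 (SE 0.22, edgeR adjusted p = 0.0126). Its level was 49.7% of wild type, and the 95% interval of the fold was 0.355 to 0.697. The other short pentraxin, serum amyloid P (Apcs), which is the major pentraxin of the mouse acute phase, rose by 0.65 (SE 0.21, edgeR adjusted p = 0.0448), from 197 to 325 CPM in wild-type to 332 to 550 CPM in deficient libraries. The Apcs call was lost without any 1 library other than deficient 2 (adjusted p from 0.0557 to 0.124), whereas Crp passed in all 8 fits with 1 library left out.

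**Figure D4:**
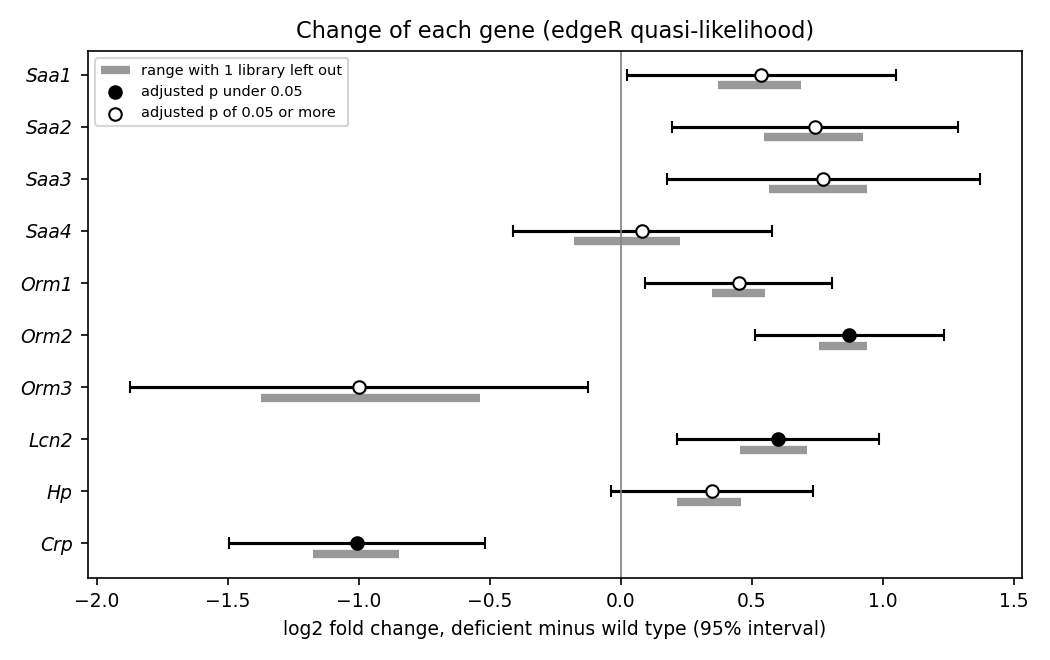
Log2 fold change (deficient minus wild type) of each gene with its 95% interval from edgeR, filled where the adjusted p was under 0.05, and as a grey bar the range of estimates with 1 library left out. Orm2, Lcn2 and Crp are filled, the bars of 9 genes keep their sign, and that of Saa4 spans 0.

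Levels can be compared between genes only per length, and here the length used changed the order. By the authors' FPKM the wild-type order was Hp (9170 ± 1689), Orm1 (3279 ± 447), Saa2 (2430 ± 578), Saa1 (2211 ± 475), Lcn2 (1775 ± 337), Saa3 (867 ± 271), Crp (260 ± 28.3), Orm2 (204 ± 18.2), Saa4 (107 ± 19.9) and Orm3 (49.97 ± 30.5), each as mean ± SD with n = 4. Orm1, Saa2, Saa1 and Lcn2 overlapped with their neighbours, as did Saa4 and Orm3, while the other neighbours did not. In deficient livers the order was the same but for Orm2 (415 ± 59.1) and Crp (143 ± 41.1), which changed places.

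The listed lengths of Saa1, Saa2, Saa3 and Lcn2 are 2478, 2518, 2606 and 2623 bases, while their coding transcripts in GENCODE M21 have 609, 606, 555 and 915 bases. For Orm1, Orm2, Orm3 and Saa4 the listed and transcript lengths were equal, and for Crp they were 3444 and 1695. Per kilobase of coding transcript, a choice made after the data were seen, wild-type Hp (10949 ± 2017), Saa2 (10098 ± 2404) and Saa1 (8995 ± 1931) overlapped at the top, followed by Lcn2 (5088 ± 966), Saa3 (4072 ± 1272) and then Orm1. The ranges of Lcn2 and Saa3 overlapped, as did those of Saa3 and Orm1. In deficient livers Saa2 led at 18851 ± 6304 (all SD, n = 4), overlapping with Hp at 15506 ± 1941. Differences between genotypes do not depend on this choice, since each gene keeps its length.

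The other genes of the response were taken from lists by role. Each count below stands beside 9.27% of all genes tested called higher and 10.6% called lower. Among 17 other induced plasma proteins 3 rose and 0 fell, with a median log2 fold change of 0.24. This list also holds Cd14 (log2 fold change 0.01) and Steap4 (-0.05), which encode membrane proteins. A2m, the protease inhibitor alpha-2-macroglobulin, rose by 1.44 (SE 0.37, edgeR adjusted p = 0.0201), from 88.2 to 227 CPM in wild-type to 242 to 762 CPM in deficient libraries, with deficient 3 the highest. Lrg1, a leucine-rich plasma glycoprotein, rose by 0.66 (SE 0.19, edgeR adjusted p = 0.0286), and Apcs is given above. The A2m call was lost on leaving out deficient 3 (1.04, adjusted p = 0.0593) and on leaving out wild type 3 (1.23, adjusted p = 0.058). That of Lrg1 was lost on leaving out any of deficient 1, 3 and 4 and wild type 3 (adjusted p from 0.0513 to 0.0873). Serpina3n, a serine protease inhibitor, was at 8623 to 15474 CPM in deficient and 5254 to 8527 CPM in wild-type libraries (0.62, SE 0.21, edgeR adjusted p = 0.0599). In this list 0 rose without deficient 3 or wild type 3, 1 rose without deficient 4, and 6 rose with library size alone or limma on FPKM.

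Of 11 negative acute phase proteins tested, whose levels fall in inflammation, 3 fell and 0 rose, with a median of -0.39. Serpina6, the corticosteroid carrier, fell by 1.65 (SE 0.33, edgeR adjusted p = 0.00949), Apom, a lipoprotein component, by 0.53 (SE 0.15, adjusted p = 0.0278) and Serpinc1, antithrombin, by 0.48 (SE 0.15, adjusted p = 0.0365). Serpina6 passed in every fit with 1 library left out, while Apom was lost in 5 and Serpinc1 in 6 of the 8. Alb itself was at 55473 to 79131 CPM in deficient and 84759 to 96659 CPM in wild-type libraries, a log2 fold change of -0.39 that did not pass (SE 0.15, edgeR adjusted p = 0.0884). In this list 1 fell on leaving out any of deficient 1 and 3 and wild type 2, 3 and 4, with library size alone, with no filter on low counts and with limma on log2(FPKM + 1), and 6 fell with DESeq2.

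The cytokine arms upstream had medians below 0. In the IL-6 and STAT3 arm 8 of 16 genes tested fell and 0 rose, with a median of -0.68, where 10.6% of all genes tested fell. Il6 itself was at 0.784, 0.683, 0.289 and 1.03 CPM in deficient and 5.38, 3.16, 3.17 and 0.897 CPM in wild-type libraries, where wild type 4 lay among the deficient ones, and it fell by 2.16 (SE 0.53, edgeR adjusted p = 0.018). Socs3, the feedback inhibitor induced by STAT3, fell by 1.55 (SE 0.25, adjusted p = 0.00481), the kinase gene Jak2 by 1.39 (SE 0.28, adjusted p = 0.0095) and Cish, a cytokine-signalling inhibitor, by 1.37 (SE 0.29, adjusted p = 0.011). Stat3 was at 449 to 670 CPM in deficient and 610 to 715 CPM in wild-type libraries (-0.27, SE 0.17, edgeR adjusted p = 0.298). The Il6 call rested on few reads, 13, 11, 5 and 18 in deficient and 85, 45, 48 and 14 in wild-type libraries. Il6 did not pass the FPKM filter of the limma fits, and its call was lost on leaving out deficient 3 (adjusted p = 0.051). In this list 3 fell without that library, and 5 without wild type 3.

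In the IL-1, TNF and NF-kB arm 8 of 18 fell and 0 rose, with a median of -0.59. Il1a, an alarmin cytokine, was at 0.664 to 1.62 CPM in deficient and 2.88 to 11.01 CPM in wild-type libraries and fell by 2.28 (SE 0.48, edgeR adjusted p = 0.0104), or by 1.64 (adjusted p = 0.0182) without wild type 1, its highest library. The NF-kB inhibitor gene Nfkbia fell by 1.70 (SE 0.27, adjusted p = 0.00481), Nfkb1, a subunit, by 1.15 (SE 0.23, adjusted p = 0.00931) and Nfkbiz, an NF-kB cofactor of acute phase genes, by 1.15 (SE 0.28, adjusted p = 0.0167). Il1b was at 1.86 to 4.48 CPM in deficient and 2.12 to 11.3 CPM in wild-type libraries (-0.90, SE 0.51, edgeR adjusted p = 0.233), and its log2 fold change was -0.10 (adjusted p = 0.871) without wild type 1. In this list 5 fell on leaving out any of deficient 1 and 3 and wild type 3, 4 on leaving out wild type 4, and 5 or 4 with limma on log2(FPKM + 1) or log2(FPKM + 0.1), and 2 rose with limma and with library size alone.

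Of 12 transcription factor genes of acute phase promoters 2 rose and 0 fell. Foxa2, a forkhead factor of hepatocytes, rose by 0.77 (SE 0.22, edgeR adjusted p = 0.031), and its call was lost on leaving out any of deficient 3 and 4 and wild type 2, 3 and 4. Cebpb, the inflammation-induced C/EBP factor, had 6159, 8426, 5682 and 8850 reads in deficient libraries and 9628, 86, 139 and 161 in wild type 1 to 4. Wild type 1 was thus above every deficient library and the other wild-type libraries far below, and Cebpb did not pass (1.45, SE 1.17, edgeR adjusted p = 0.406). Without wild type 1 it was 5.65 (adjusted p = 1.1e-05). Cebpd was at 75.8 to 155 CPM in deficient and 94.2 to 138 CPM in wild-type libraries (0.07, SE 0.22, edgeR adjusted p = 0.852). Without wild type 1, Orm2 (0.78, adjusted p = 0.0157) and Lcn2 (0.46, adjusted p = 0.0454) still rose and Crp fell by 1.09 (adjusted p = 0.0164).

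Of 13 genes tested of receptors and binding partners of these proteins, 0 passed in edgeR's test. At an unadjusted p under 0.05, 1 was higher and 1 lower, beside 1959 and 2047 of all 11380 genes tested. DESeq2 called 1 of 17 higher. Mmp9, a protease that lipocalin 2 binds, was at 3.54 to 6.09 CPM in deficient and 0.132 to 2.32 CPM in wild-type libraries, a log2 fold change of 1.77 (SE 0.58, edgeR adjusted p = 0.0515) that passed with DESeq2 (adjusted p = 0.012). Tlr2, a receptor for serum amyloid A, was at 33.0 to 197 CPM in deficient and 191 to 260 CPM in wild-type libraries (-1.13, SE 0.43, edgeR adjusted p = 0.0819), and passed without deficient 4 (-1.66, adjusted p = 0.0228).

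**Figure D5:**
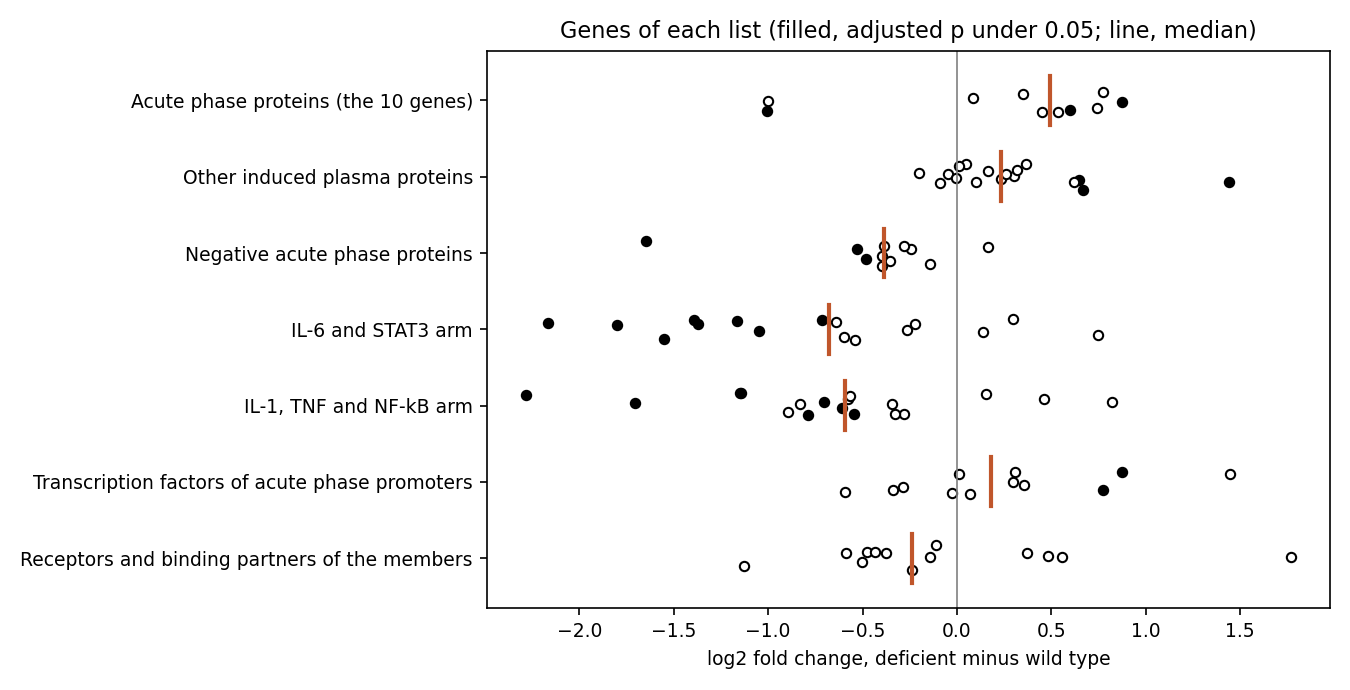
Log2 fold change (deficient minus wild type) of the tested genes of each list, filled where the edgeR adjusted p was under 0.05, with the median of each list as an orange line. The medians of the 10 acute phase genes (0.49) and of other induced plasma proteins (0.24) lie above 0, and those of the IL-6 and STAT3 arm (-0.68) and the IL-1, TNF and NF-kB arm (-0.59) below.

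Markers of hepatocytes and of other liver cells are given beside these values, where 9.27% of all genes tested were called higher and 10.6% lower. The 8 hepatocyte markers summed to 93144 to 122170 CPM in deficient and 121140 to 142700 CPM in wild-type libraries, and 1 fell (Cps1). Most of this sum was Alb, with means of 67888 of 109130 CPM in deficient and 88865 of 130740 CPM in wild-type libraries. Alb, Apoa1 and Ttr are also in the list of negative acute phase proteins above, and Fgb in that of other induced plasma proteins. The 11 macrophage markers, of which 10 were tested, 4 fell and 0 rose, summed to 50.4 to 60.1 CPM in deficient and 54.0 to 153 CPM in wild-type libraries, and wild type 1 had both the highest sum and the highest Saa3 of its group. The Kupffer cell marker Clec4f was at 8.97 to 14.1 and 12.8 to 39.8 CPM (-1.03, SE 0.33, edgeR adjusted p = 0.0488), a call lost in 6 of the 8 fits with 1 library left out (-0.60, adjusted p = 0.118, without wild type 1). Of the 5 adipocyte markers only Fabp4 passed the filter. Their sum was 24.4 to 64.5 CPM in deficient and 18.6 to 69.0 CPM in wild-type libraries. The part of these cells in the serum amyloid values was not tested. Of T and NK cell markers 1 of 3 tested fell (Gzma), with sums of 7.70 to 11.3 CPM in deficient and 8.84 to 16.5 CPM in wild-type libraries. Of endothelial markers 1 of 6 fell (Clec4g), with sums of 42.9 to 67.9 and 36.0 to 91.4 CPM. The 4 cholangiocyte markers, with a median log2 fold change of -0.97 and 1 that fell (Sox9), summed to 23.2, 104, 25.5 and 22.5 CPM in deficient libraries and 154 to 171 CPM in wild-type libraries, without overlap. None of these 3 lists had a gene that rose, their called genes were named after their values were seen, and their part in the results was not tested.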

How the data were processed

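Poly(A)-selected liver RNA of 8 mouse samples was sequenced on an Illumina NovaSeq, per the labels' protocols. Each library has, per the file headers, a column of raw read counts and a column of FPKM for every gene. Reads were trimmed with cutadapt and aligned with HISAT2 2.0.5, per the submitters' processing notes, and no source used here gives the counting program, strand use, annotation or build. The authors' FPKM were the counts divided by the listed length and the library total, within 6.96e-05% when recomputed. Gene length was deposited by the authors as another column of the file.

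Groups follow the genotype label. Counts were tested with edgeR 4.0.16 (R 4.3.3; TMM scaling, default filter, quasi-likelihood test, Benjamini-Hochberg adjustment, threshold 0.05), which kept 11380 of 21899 genes, and adjusted p-values are from it unless another tool is named. The SE is the size of the log2 fold change divided by the square root of F. Alternatives were library size alone, DESeq2 1.42.0, no filter, 1 CPM in 4 libraries, robust empirical Bayes, limma 3.58.1 on log2(FPKM + 1) or log2(FPKM + 0.1) for genes at FPKM of at least 0.5 in 4 libraries, the replicate block, scaling without the 10 genes and TMM-scaled shares (both added after seeing the data) and each library left out. In counts simulated for 4 against 4 libraries (11262 genes fitted), edgeR recovered 58.1% of 93 2-fold and 98.9% of 95 4-fold changes. The simulated counts followed the trend of dispersion with expression, without the spread particular to each gene. Far fewer genes changed in them than were called in the data, so these shares need not hold for the 10 genes. No replicate pair agreed within sampling noise (chi-square per degree of freedom at least 21.5).

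The 10 genes and the lists were chosen with earlier results of these data known. Besides the 10 and P2rx4, named genes were the 4 smallest p-values of each list and a few fixed markers; 1 gene that this rule names is not reported here. Coding identity used Biopython 1.88 on GENCODE M21 transcripts.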

Additional observations from a re-analysis of the deposited data

Results flagged for a closer look

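Among the named genes, single libraries lay far from the other 3 of their group by Dixon's test, which chance alone gives in about 1 of 20 groups. Of the 10 acute phase genes, each searched in both groups, this held for Orm3 in wild type. It was at 73.97 CPM in wild type 1 against 27.2 to 29.8 CPM in the other wild-type libraries. For the 10 genes this is about as many as chance alone gives. Wild type 1 was also apart for Cebpb (609 against 6.05 to 10.3 CPM), for Il1a (11.01 against 2.88 to 3.59 CPM), for Il1b (11.3 against 2.12 to 3.66 CPM) and for Serpinc1 (1649 against 1895 to 1913 CPM). Wild type 2 was apart for Nfkb1 (136 against 181 to 187 CPM). Deficient 4 was apart for Il1b (4.48 against 1.86 to 2.29 CPM) and for S100a9 (95.4 against 47.6 to 50.7 CPM).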

How the results depend on the processing

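Of the 10 genes, Orm2 and Crp passed in all 17 alternatives, Lcn2 in 12, Saa2 and Saa3 in 7 each, Orm1 in 4, Hp and Orm3 in 2 each, Saa1 in 1 and Saa4 in 0. The number that rose was 2 as reported, 7 with library size alone, 5 with DESeq2, 6 with limma on log2(FPKM + 1), 4 with limma on log2(FPKM + 0.1) and 1 to 4 with 1 library left out. The number that fell was 1 as reported, 2 with DESeq2 and 1 to 2 with 1 library left out. With 1 library left out, the log2 fold change of Saa4 ran from -0.18 (without deficient 4, adjusted p = 0.577) to 0.23, and that of Cebpd from -0.12 (without deficient 4, adjusted p = 0.737) to 0.23, the only sign changes among the named genes. The 2264 genes called of all tested became 982 to 2388 with 1 library left out, with 1482 without deficient 1, 1224 without deficient 3 and 982 without wild type 3. The cause was not tested. Library size alone moved the median of all genes by 0.14 on the log2 scale and the calls from 1055 higher and 1209 lower to 1731 and 843. Limma gave 1602 and 813 on log2(FPKM + 1), and 1594 and 814 on log2(FPKM + 0.1), so the higher counts under these scalings are relative to that shift. DESeq2 moved the median by -0.0049 and called 1306 higher and 1559 lower of 16145.

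Same-numbered libraries did not deviate together (r from -0.114 to 0.132, and 0 of 8 libraries correlated best with their own number). Differently numbered libraries had r from -0.317 to 0.330. With 4 libraries per group this check cannot exclude pairing by number, which the labels do not state. With the replicate block, 1768 genes were called of all tested, 3 of the 10 rose (Saa3 added, 0.74, adjusted p = 0.0301) and 1 fell. Calls gained with the block were Cebpb (4.69, adjusted p = 0.0334), Tlr2 (-1.44, 0.045) and Serpina3n (0.61, 0.0381). Calls lost with it were Apcs (adjusted p = 0.0622), Lrg1 (0.051), Apom (0.0607), Serpinc1 (0.0559), Foxa2 (0.0676) and Clec4f (0.0739). No other named gene changed its call. Counts of 3 correspond to 0.181 to 0.194 CPM, so depth does not limit the 10 genes, and the 4 libraries per group limit the precision.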
